A study of Mus musculus with 18 samples.

Results

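The 9 genes described here encode the integrins by which leukocytes hold on to other cells and matrix, together with the surface ligands that those integrins and the selectins bind. They were picked by gene symbol from the 20615 genes of the table, with earlier results of these data known. Each of the 9 was found there and kept by the filter on low counts. Itgal, Itgam and Itgax encode the alpha subunits CD11a, CD11b and CD11c, which each pair with the beta subunit CD18 from Itgb2 to form LFA-1, Mac-1 and the CD11c receptor. Itga4 and Itgb1 encode the subunits CD49d and CD29 of VLA-4. Icam1 encodes the main ligand of LFA-1 and a ligand of Mac-1, Vcam1 the ligand of VLA-4, and Selplg encodes PSGL-1, the ligand of P-selectin on leukocytes.

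Integrins are alpha-beta pairs that sit in the membrane in a bent, weakly binding form until signals inside the cell open them, and the level of a subunit's mRNA does not report that state. An alpha subunit reaches the surface only with its beta partner. On macrophages these receptors serve attachment, migration, uptake of opsonised particles through Mac-1, and contact with T cells, in which ICAM-1 on the macrophage engages LFA-1 on the T cell. Icam1 and Vcam1 are known as genes that inflammatory signals induce, and CD11b and CD11c are widely used as surface markers of myeloid cells and of dendritic cells.

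The study asked how macrophages of a mouse model of Sjögren's syndrome respond to apoptotic cells (ACs). RNA of bone marrow-derived macrophages (BMDMs), grown from bone marrow with M-CSF from L929 cell supernatant, was sequenced in 18 samples, 3 in each of 6 groups. The strains were C57BL/6 (B6), the control, and C57BL/6.NOD-Aec1Aec2 (SjSS), a B6 line that carries the Aec1 and Aec2 intervals of the NOD mouse, and all mice were female and 7 to 12 weeks old by the study's methods. BMDMs of each strain were left untreated (control), incubated with 5 ACs per BMDM for 2 h and then washed and kept for a further period, or given CpG, an oligonucleotide ligand of a Toll-like receptor, at 1 µM for 6 h. The ACs were thymocytes killed with dexamethasone. The further period after ACs was 3 h by the labels and 4 h by the study's methods, so the AC and CpG groups differed in time as well as in stimulus. The sources used here state neither which strain's thymocytes each sample received nor whether equal sample numbers mark a shared mouse. A figure legend of the study gives 3 mice per strain and another gives 3 mice per condition, so samples of a strain may come from shared mice. The tests treat all samples as separate, so p-values measure the spread between these samples.

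Total counts per sample ran from 30688313 to 57139691, and correlations of log2 CPM between replicates of a group lay between 0.986 and 0.992. CPM here is the count scaled to a fixed library total, with totals corrected by edgeR's TMM factors, and values are mean ± SD of 3 samples. Of the genes, 15789 were tested with edgeR's quasi-likelihood test and Benjamini-Hochberg adjustment. A gene passed at an adjusted p under 0.05, and it was called where its log2 fold change was also over 1.3 in size. Scaling by plain library totals moved the median log2 fold change of all genes by -0.41 in the AC response of SjSS, by -0.34 in the interaction of strain with AC and by -0.30 in the strain comparison with ACs, and by -0.18 and -0.13 in the CpG responses of B6 and SjSS. It also moved the split of all called genes into higher and lower from 1119 and 921 to 804 and 1900 in AC treated SjSS, from 986 and 425 to 695 and 819 between the strains with ACs, and from 752 and 437 to 509 and 912 in the interaction with AC. With CpG the split went from 925 and 1086 to 766 and 1418 in B6 and from 759 and 703 to 657 and 912 in SjSS. The 8 macrophage markers, Adgre1 and Csf1r among them, summed to between 14595 and 22509 CPM in every sample.

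Itgal (chromosome 7, 127296260 to 127335138, plus strand, mm10), Itgam (chromosome 7, 128062640 to 128128160, plus) and Itgax (chromosome 7, 128129547 to 128150657, plus) lie on one chromosome, with Itgam and Itgax next to each other. Itgb2 is on chromosome 10 (77530252 to 77565708, plus), Itga4 on chromosome 2 (79255426 to 79333123, plus) and Itgb1 on chromosome 8 (128685654 to 128733200, plus). Of the ligand genes, Icam1 is on chromosome 9 (21015960 to 21028797, plus), Vcam1 on chromosome 3 (116109949 to 116129688, minus) and Selplg on chromosome 5 (113818536 to 113832644, minus). All are protein-coding. The deposited Itgam row reaches past the end of the gene in GENCODE M21 (128118491) and overlaps a processed pseudogene, RP23-144N15.3, with a mean of 1.61 counts. Itga4 overlaps Cerkl on the other strand, which had a mean of 57.4 counts against 9902 for Itga4. Whether counting used strand is not given in the sources used here.

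RefSeq promoter windows of GRCm38.p6, 250 bases before to 50 after the start, were at hand for Itgam, Itgax, Itga4, Itgb1 and Icam1. The 3 printed here, 5′ to 3′ on the plus strand, belong to the members that were called in at least 1 AC comparison below, so that a reader can see what lies upstream of genes that moved in different directions. Capitals mark matches on either strand to an NF-kB motif (GGNNNTTCC), a GAS motif (TTCNNNGAA), an AP-1 motif (TGANTCA), an ISRE motif (GAAANNGAA) or a PU.1 motif (GAGGAA). The windows are chr9:21015690-21015989 for Icam1, chr7:128129300-128129599 for Itgax and chr2:79255176-79255475 for Itga4.
Icam1: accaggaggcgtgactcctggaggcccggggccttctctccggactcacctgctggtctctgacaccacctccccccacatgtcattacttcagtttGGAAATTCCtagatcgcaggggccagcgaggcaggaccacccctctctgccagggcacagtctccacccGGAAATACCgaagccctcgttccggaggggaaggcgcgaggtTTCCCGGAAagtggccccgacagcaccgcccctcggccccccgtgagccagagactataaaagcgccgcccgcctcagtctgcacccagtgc
Itgax: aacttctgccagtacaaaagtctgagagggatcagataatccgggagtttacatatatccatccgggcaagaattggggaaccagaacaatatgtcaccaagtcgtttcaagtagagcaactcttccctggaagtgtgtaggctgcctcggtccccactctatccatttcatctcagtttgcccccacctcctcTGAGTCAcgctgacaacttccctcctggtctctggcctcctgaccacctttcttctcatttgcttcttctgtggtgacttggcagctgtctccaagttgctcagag
Itga4: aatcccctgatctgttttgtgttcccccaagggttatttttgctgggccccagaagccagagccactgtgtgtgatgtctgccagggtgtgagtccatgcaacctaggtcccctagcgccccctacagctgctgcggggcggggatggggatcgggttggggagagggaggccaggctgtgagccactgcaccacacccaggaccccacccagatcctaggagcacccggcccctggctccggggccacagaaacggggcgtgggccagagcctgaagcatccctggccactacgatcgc

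The Icam1 window held NF-kB matches that begin 153 and 84 bases before the start, the first matching the motif on both strands, and a GAS match that begins 42 bases before it. The Itgax window held an AP-1 match, 56 bases before the start, and the Itga4 window held none of the 5 motifs. Neighbouring Itgam had 3 PU.1 matches, and Itgb1 had an NF-kB match and a PU.1 match. Among all 32851 promoters of the RefSeq table, 18.5% held the NF-kB motif, 8.30% GAS, 7.81% AP-1, 8.56% ISRE and 28.3% PU.1. These matches describe letters in a window and are not evidence of binding.

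Per length, control BMDMs held the most mRNA for the shared beta subunit and for CD11b. In control B6 BMDMs, Itgb2 stood at 206 ± 8.76 CPM per kilobase of exon and Itgam at 193 ± 11.1. Itgb1 followed at 137 ± 10.04, Itgal at 62.5 ± 3.36, Selplg at 38.4 ± 2.33 and Icam1 at 32.5 ± 0.209. Far below were Itga4 at 11.9 ± 1.32, Itgax at 5.05 ± 1.15 and Vcam1 at 2.03 ± 0.509 CPM per kilobase. Even so, no sample held fewer than 345 counts of Itgax or 372 counts of Vcam1. After ACs, Icam1 in SjSS reached 274 ± 11.6 CPM per kilobase, the highest mean of any of the 9 genes in any group.

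**Figure D1:**
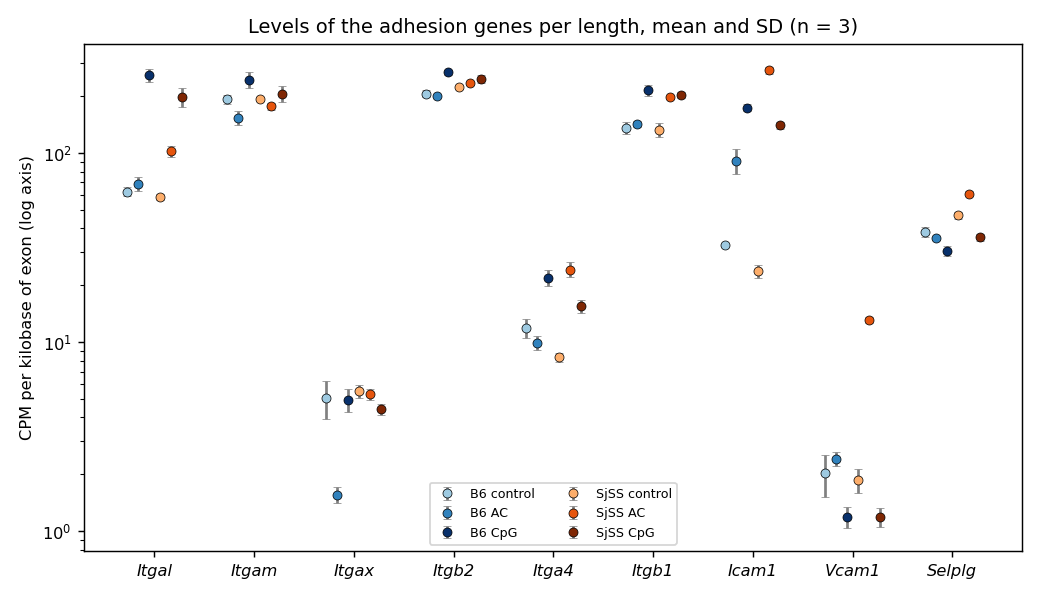
Mean level of each gene per kilobase of exon (CPM per kilobase, log axis) in the 6 groups, with SD bars (n = 3). Itgb2 and Itgam stay between 154 and 268 in all groups, while Icam1 spans from 23.8 in control SjSS to 274 in AC treated SjSS BMDMs.

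Icam1 rose with ACs in both strains, and in SjSS it rose more than any other member. Its CPM in the 3 control B6 samples was 143, 142 and 141, and with ACs it was 331, 449 and 414. In SjSS the control samples held 108, 109 and 94.0 CPM, and the AC treated samples 1209, 1237 and 1139. Every AC treated sample lay above every control sample of its strain, and all SjSS samples with ACs lay above all other samples of the study. Icam1 rose 2.81-fold in B6 (log2 fold change 1.49, SE 0.09, adjusted p = 1.57e-10) and 11.5-fold in SjSS (3.53, SE 0.09, adjusted p = 4.77e-16).

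Vcam1 rose with ACs in SjSS BMDMs. The control samples of SjSS held 17.6, 13.7 and 18.1 CPM and the AC treated ones 119, 111 and 117. In B6 the control samples held 13.3, 18.5 and 22.3 CPM, and those with ACs 19.4, 22.1 and 23.0, so that the groups overlapped in B6 and were far apart in SjSS. The rise in SjSS was 6.98-fold (log2 fold change 2.80, SE 0.15, adjusted p = 4.63e-12), and the value in B6 was 0.26 (SE 0.14, adjusted p = 0.175). The B6 value ran from 0.07 to 0.44 on leaving out 1 sample, passed without B6 control 3 (0.44, adjusted p = 0.0205), and passed with the sample number as a block within each strain (0.28, adjusted p = 0.0122). Among the 15789 tested genes, Icam1 ranked 229 and Vcam1 364 from the highest log2 fold change with ACs in SjSS.

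Itga4, the alpha subunit that binds VCAM-1, moved in the same treatment. SjSS controls held 119, 109 and 122 CPM and AC treated SjSS samples 356, 303 and 357, with no overlap, a 2.91-fold rise (log2 fold change 1.54, SE 0.10, adjusted p = 6.04e-11). In B6 the controls held 176, 179 and 145 CPM and the AC treated samples 126, 141 and 150.2, and here the groups overlapped. The log2 fold change in B6 was -0.26 (SE 0.09, adjusted p = 0.0334), and it no longer passed without any 1 of B6 control 1 or 2 or B6 AC 1 or 2, with adjusted p up to 0.156. Scaled by library totals, the rise in SjSS was 1.12, past the p threshold but under the fold threshold. The beta partner, Itgb1, went from 543 ± 48.1 to 806 ± 14.4 CPM in SjSS, a log2 fold change of 0.57 (adjusted p = 8.60e-07) that was 0.16 by library totals. In B6 its value was 0.07 (adjusted p = 0.470).

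Itgax went the other way, with its largest change in B6. Its CPM was 19.6, 22.8 and 30.4 in untreated B6 samples and 8.18, 6.68 and 7.69 in those with ACs. All 3 AC treated B6 samples lay below every other sample of the study, and the other 5 groups all overlapped with their neighbours in the order of means. The fall was 3.23-fold (log2 fold change -1.69, SE 0.14, adjusted p = 1.61e-08). In SjSS the controls held 24.1, 27.1 and 28.2 CPM and the AC treated samples 23.5, 26.4 and 26.4, with a log2 fold change of -0.06 (SE 0.13, adjusted p = 0.738). By library totals this was -0.47 (adjusted p = 0.00442), past the p threshold, and -1.76 in B6. Itgam, the gene beside it, fell by 0.33 on the log2 scale in B6 (adjusted p = 0.00331), from 970 ± 55.6 to 773 ± 65.8 CPM, and stood at -0.12 in SjSS (adjusted p = 0.201). By library totals Itgam fell in both, by 0.40 in B6 (adjusted p = 5.65e-04) and by 0.54 in SjSS (adjusted p = 7.82e-06).

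**Figure D2:**
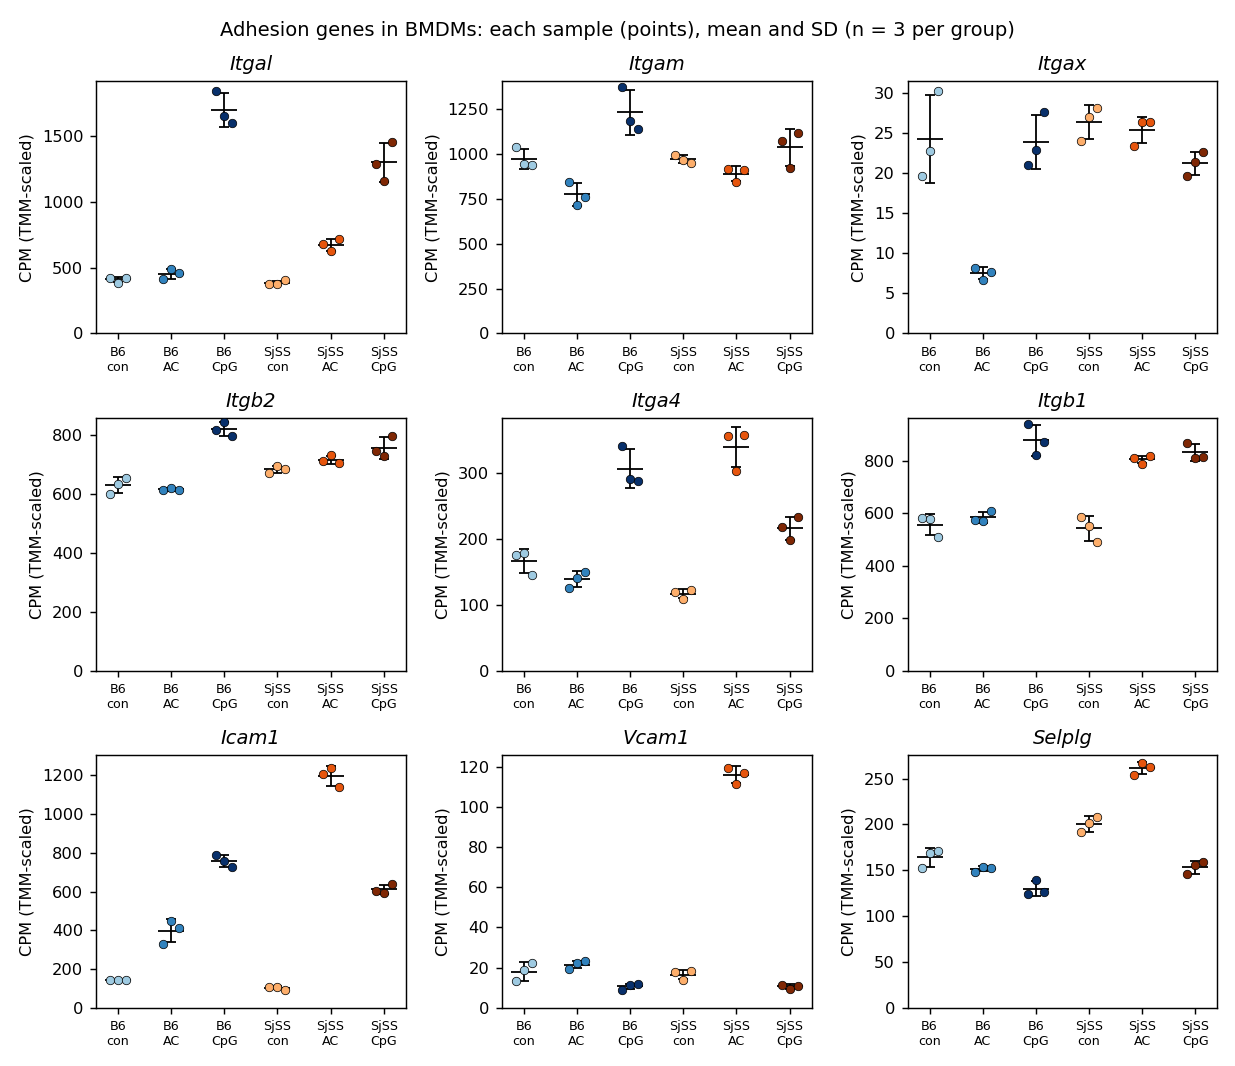
Level of each gene (CPM, TMM-scaled, vertical axes from 0) in every sample of the 6 groups, with the mean and SD of each group (n = 3). Icam1 and Vcam1 are highest in AC treated SjSS BMDMs (1195 and 116 CPM on average), Itgal in CpG treated B6 BMDMs, and Itgax is lowest in AC treated B6 BMDMs.

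The LFA-1 alpha subunit and PSGL-1 rose with ACs in SjSS to a smaller extent. Itgal held 379, 376 and 404 CPM in SjSS controls and 682, 627 and 718 with ACs, against 425, 385 and 422 and then 411, 489 and 460 in B6. The SjSS groups were apart and the B6 groups overlapped. Its log2 fold change was 0.81 in SjSS (SE 0.08, adjusted p = 1.12e-07) and 0.14 in B6 (adjusted p = 0.199), and by library totals 0.39 in SjSS (adjusted p = 3.39e-04). Selplg went from 200.3 ± 8.49 to 261 ± 6.76 CPM in SjSS, with a log2 fold change of 0.38 (adjusted p = 1.13e-05) that was -0.03 by library totals, and from 164 ± 9.97 to 151 ± 2.66 in B6 (-0.11, adjusted p = 0.132, and by library totals -0.19, adjusted p = 0.0137). Itgb2, the partner of all 3 CD11 chains, had log2 fold changes of -0.03 in B6 (adjusted p = 0.661) and 0.07 in SjSS (adjusted p = 0.244), the latter -0.34 by library totals (adjusted p = 2.17e-06).

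With ACs, 1 member was called higher in B6 (Icam1) and 1 lower (Itgax), where 4.46% of all tested genes were called, 2.43% higher and 2.03% lower. In SjSS, 3 were called higher (Icam1, Vcam1 and Itga4) and 0 lower, where 12.9% of all genes were called, 7.09% higher and 5.83% lower. At adjusted p alone, 1 member rose and 3 fell in B6 (38.3% of all genes passed, 20.0% higher and 18.3% lower), and 6 rose and 0 fell in SjSS (58.0% passed, 28.6% higher and 29.4% lower). By library totals this became 5 higher and 3 lower in SjSS, the latter Itgam, Itgax and Itgb2. Of these, Itgb2 changed direction (0.07 with TMM scaling, -0.34 by library totals). Itgam and Itgax were below 0 under both scalings and came past the p threshold only by library totals. The median log2 fold change of the 9 members was -0.03 in B6 and 0.57 in SjSS, beside 0.00150 and -0.02 over all tested genes.

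ACs are thymocytes, which themselves carry LFA-1, VLA-4 and PSGL-1, so T-lineage markers are given beside these values. Of 18 such markers the table held 16, of which 3 were tested. Their summed level was 8.44 to 10.2 CPM in control B6 and 5.28 to 6.19 with ACs, and 10.5 to 12.0 in control SjSS and 14.4 to 18.9 with ACs. Most of it was Cd4, with 1482 counts in the 3 SjSS controls and 1830 in the 3 AC treated SjSS samples together. In B6 Cd4 had 1429 counts in the 3 controls and 529 in the 3 AC treated samples. Cd3e had 9 and 6 counts in B6 and 5 and 4 in SjSS, control and AC treated, and Rag1 had 0 and 24 in B6 and 0 and 3 in SjSS. The 13 markers that were not tested had 0 to 26 counts each over the 3 samples of any control or AC group. In B6 all of these but Cd3e and Cd2 had more counts with ACs, such as Cd8a (1 and 26) and Dntt (0 and 18). In SjSS they went both ways, with Trbc2 at 1 and 13 and Cd8a at 12 and 10. Of the 3 tested, 1 was called higher and 2 passed higher with ACs in SjSS, and 1 passed higher and 1 lower in B6. Lck went from 21 to 86 counts in SjSS and from 21 to 39 in B6, and Cd5 from 68 to 104 and from 50 to 105.

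VCAM-1 is best known on endothelium and stroma. The 9 endothelial and stromal markers in the table, of 10 listed, summed to 54.2 to 152 CPM in untreated B6, 96.2 to 131 in B6 with ACs, 182 to 250 in control SjSS and 216 to 266 in AC treated SjSS, with CpG treated samples at 47.5 to 110 in B6 and 162 to 210 in SjSS. The collagen genes Col1a1 and Col1a2 made up most of these sums. Cdh5 and Kdr, which define endothelium, had 439 and 718 counts in the 3 SjSS controls and 1067 and 1455 in the 3 SjSS samples with ACs, and 403 and 362 and then 867 and 195 in B6. Dendritic cell markers, which bear on Itgax, summed to 5.71 to 7.05 CPM in control B6 and 4.84 to 6.47 in AC treated B6, and in SjSS to 4.97 to 5.91 and 6.96 to 8.28. Of the other lists, B cell markers summed to 9.41 to 26.8 CPM over the 18 samples, neutrophil markers to 2.49 to 13.2, and red cell and platelet lineage markers, nearly all of it Pf4, to 633 to 1231. The 12 genes known to be induced by glucocorticoids were listed because the thymocytes had been given dexamethasone. They summed to 366 to 388 CPM in control B6 and 421 to 450 with ACs. In SjSS the sums were 349 to 436 in controls and 464 to 529 with ACs. With CpG they were 499 to 529 in B6 and 388 to 418 in SjSS. Single genes of this list moved in opposite directions. In SjSS with ACs, mean CPM fell for Tsc22d3 (65.4 to 27.6), Per1 (20.8 to 8.16) and Klf9 (13.3 to 6.67). Mean CPM rose there for Sgk1 (163 to 272) and Dusp1 (49.5 to 91.8). At adjusted p alone with ACs, 4 of the 12 rose and 3 fell in SjSS, against 3 and 3 in B6. With CpG, 3 rose and 7 fell in each strain. The part of other cells in these results was not tested, and in bulk RNA fewer cells of a type and less RNA per cell cannot be told apart.

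CpG gave another pattern, in which the 2 strains were close. Of the integrin subunits among the members, Itgal rose most. It held 1845, 1653 and 1601 CPM in CpG treated B6 and 1287, 1159 and 1457 in CpG treated SjSS samples. All of these lay above every control and AC treated sample of either strain. The rise was 4.14-fold in B6 (log2 fold change 2.05, SE 0.09, adjusted p = 3.16e-13) and 3.37-fold in SjSS (1.75, SE 0.09, adjusted p = 3.47e-12). Icam1 held 789.5, 758 and 726 CPM in B6 and 605, 592 and 638 in SjSS, which is 5.35-fold (2.42, adjusted p = 4.14e-14) and 5.90-fold (2.56, adjusted p = 3.52e-14) above the controls. In SjSS this lay below the level after ACs, in B6 above it.

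The VLA-4 subunits rose together with CpG in both strains. Itga4 went to 306 ± 30.0 CPM in B6 and 216 ± 17.4 in SjSS, log2 fold changes of 0.88 (adjusted p = 1.47e-07) and 0.89 (adjusted p = 1.75e-07). Itgb1 went to 879 ± 59.1 and 833 ± 32.7 CPM, log2 fold changes of 0.66 (adjusted p = 1.24e-07) and 0.62 (adjusted p = 3.74e-07). Their ligand Vcam1 fell instead. It held 9.07, 11.1 and 11.6 CPM in CpG treated B6 and 11.5, 9.19 and 11.03 in CpG treated SjSS samples, below all 6 controls, with log2 fold changes of -0.77 (adjusted p = 2.04e-04) and -0.65 (adjusted p = 0.00124).

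Selplg also fell with CpG, by 0.33 in B6 (adjusted p = 5.72e-05) and by 0.39 in SjSS (adjusted p = 1.23e-05) on the log2 scale. Itgb2 rose by 0.38 in B6 (adjusted p = 1.80e-06), and its 0.15 in SjSS (adjusted p = 0.0161) did not pass without SjSS control 1 or SjSS CpG 3, by library totals or in a fit of the compared groups alone. Itgam had 0.34 in B6 (adjusted p = 0.00130), 0.16 by library totals with adjusted p = 0.0914, and 0.10 in SjSS (adjusted p = 0.338). Itgax stood at -0.02 in B6 (adjusted p = 0.893) and -0.31 in SjSS (adjusted p = 0.0480), the latter lost on leaving out any 1 of SjSS control 2 or 3 or SjSS CpG 1, 2 or 3.

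Of the 9 members, 2 were called higher with CpG (Itgal and Icam1) and 0 lower in each strain, where 12.7% of all genes were called in B6 (5.86% higher, 6.88% lower) and 9.26% in SjSS (4.81% higher, 4.45% lower). At adjusted p alone, 6 rose and 2 fell in B6 (57.9% of all genes passed, 28.1% higher and 29.8% lower) and 5 rose and 3 fell in SjSS (54.2% passed, 27.8% higher and 26.4% lower). The members' median log2 fold change was 0.38 in B6 and 0.15 in SjSS, against -0.04 and -0.01 over all tested genes. The AC and CpG comparisons of a strain share their control samples.

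**Figure D3:**
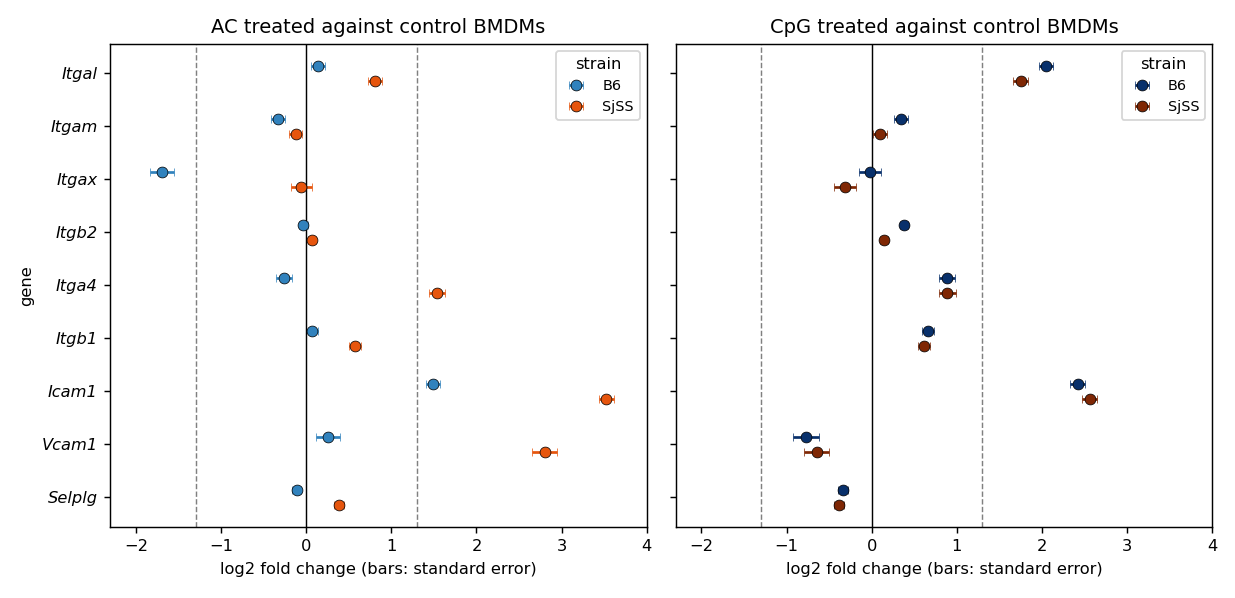
Log2 fold change of each gene (horizontal axis, bars for the standard error) against control BMDMs of the same strain, with ACs on the left and CpG on the right. Dashed lines mark 1.3 in either direction. With ACs the strains are apart for Icam1 (1.49 in B6, 3.53 in SjSS), Vcam1 (0.26 and 2.80) and Itga4 (-0.26 and 1.54), and with CpG they lie close together.

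Without treatment, the strains differed little. No member was called, where 2.01% of all genes were (0.716% of all genes lower, the rest higher). At adjusted p alone 1 was higher and 2 lower in SjSS, where 19.6% passed, 9.04% higher and 10.6% lower. Icam1 was 1.37-fold lower in SjSS (log2 fold change -0.45, SE 0.09, adjusted p = 0.00102) and Itga4 1.43-fold lower (-0.51, SE 0.09, adjusted p = 8.12e-04). Selplg was 1.22-fold higher (0.29, SE 0.06, adjusted p = 0.00158). None of these 3 overlapped between the strains, and neither did Itgb2, which did not pass with TMM scaling. The share of all genes without such overlap was not counted. Vcam1 stood at -0.12 (SE 0.14, adjusted p = 0.624) and Itgax at 0.12 (SE 0.13, adjusted p = 0.553). Itgb2 stood at 0.12 (adjusted p = 0.106) and passed by library totals (0.16, adjusted p = 0.0218).

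With ACs, all 9 members were higher in SjSS than in B6 at adjusted p under 0.05, where 49.4% of all genes passed, 24.0% higher and 25.5% lower. By library totals Itgam and Itgb2 turned to -0.10 and -0.08, so the direction of those 2 rests on the scaling, and Itgam (0.20, adjusted p = 0.0471) also failed to pass without B6 AC 2 or 3 or SjSS AC 1 or 3. Called were 3 (8.94% of all genes, 6.24% higher and 2.69% lower): Vcam1 at 5.39-fold (log2 fold change 2.43, SE 0.14, adjusted p = 6.48e-11), Itgax at 3.39-fold (1.76, SE 0.14, adjusted p = 3.87e-09) and Icam1 at 3.00-fold (1.59, SE 0.09, adjusted p = 1.80e-11). Icam1 was at 1.29 by library totals, just under the fold threshold. Itga4 stood at 1.29 with TMM scaling (adjusted p = 1.52e-09), Selplg at 0.79, Itgal at 0.57 (0.28 by library totals) and Itgb1 at 0.46. Of the 9 only Itgam overlapped between the strains, and the share of all genes without overlap was not counted. The members' median was 0.79, against -0.05 over all genes.

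With CpG several members were lower in SjSS, unlike with ACs. For Icam1 and Itga4 this was the order in untreated BMDMs too, where Selplg was likewise higher in SjSS. Itgal (-0.39, adjusted p = 0.00282), Itga4 (-0.50, adjusted p = 7.84e-04) and Icam1 (-0.31, adjusted p = 0.0130) were lower in SjSS, as was Itgam (-0.25, adjusted p = 0.0375), while Selplg was higher (0.24, adjusted p = 0.00669). Icam1 did not pass without B6 CpG 1 or SjSS CpG 2 (adjusted p up to 0.0542) or by library totals, and Itgam not without B6 CpG 1 or SjSS CpG 1 or 2, by library totals or in a fit of the compared groups alone. No member was called, where 2.61% of all genes were called (1.82% higher, 0.792% lower). At adjusted p alone 1 was higher and 4 lower, where 19.7% passed, 10.2% higher and 9.57% lower.

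The test of whether the strains responded differently is the interaction, the log2 response in SjSS minus that in B6. For ACs, 4 members were called and 7 passed, all with positive values under TMM scaling, where 7.53% of all genes were called (4.76% higher, 2.77% lower) and 37.9% passed (19.6% higher, 18.3% lower). Vcam1 had 2.55 (SE 0.20, adjusted p = 1.09e-08), Icam1 2.04 (SE 0.12, adjusted p = 2.52e-10), Itga4 1.80 (SE 0.13, adjusted p = 4.71e-09) and Itgax 1.64 (SE 0.19, adjusted p = 1.34e-06), the last 1.29 by library totals. These 4 came about in different ways. Vcam1 rose in SjSS, Icam1 rose in both strains, Itga4 rose in SjSS and was slightly lower in B6, and Itgax fell in B6 and with TMM scaling did not pass in SjSS, where by library totals it fell too (-0.47). Itgal (0.66, by library totals 0.32), Itgb1 (0.50) and Selplg (0.50) passed, the last 2 not by library totals (adjusted p = 0.159 and 0.116), and Itgam (0.20, adjusted p = 0.181) and Itgb2 (0.10, adjusted p = 0.284) did not. By library totals 5 members passed higher in SjSS and 1 lower, Itgb2 at -0.24 (adjusted p = 0.00467).

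For CpG, 0 of the 9 members passed the interaction, where 0.614% of all genes were called (0.285% higher, 0.329% lower) and 5.85% passed (3.23% higher, 2.62% lower). The nearest was Itgb2 at -0.23 (SE 0.07, adjusted p = 0.0547), which passed by DESeq2 (adjusted p = 0.00269) and by its size factors in edgeR (adjusted p = 0.0413). It also passed with the sample number as a block within each strain (adjusted p = 0.0428), and without B6 control 3, B6 CpG 3 or SjSS CpG 3. Icam1 stood at 0.14 (SE 0.12), Vcam1 at 0.12 (SE 0.21), Itga4 at 0.01 (SE 0.13) and Itgal at -0.30 (SE 0.12, adjusted p = 0.154). The values of Vcam1 and Itga4 were smaller than their standard errors, and those of Icam1, Itgb2 and Itgal were larger.

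**Figure D4:**
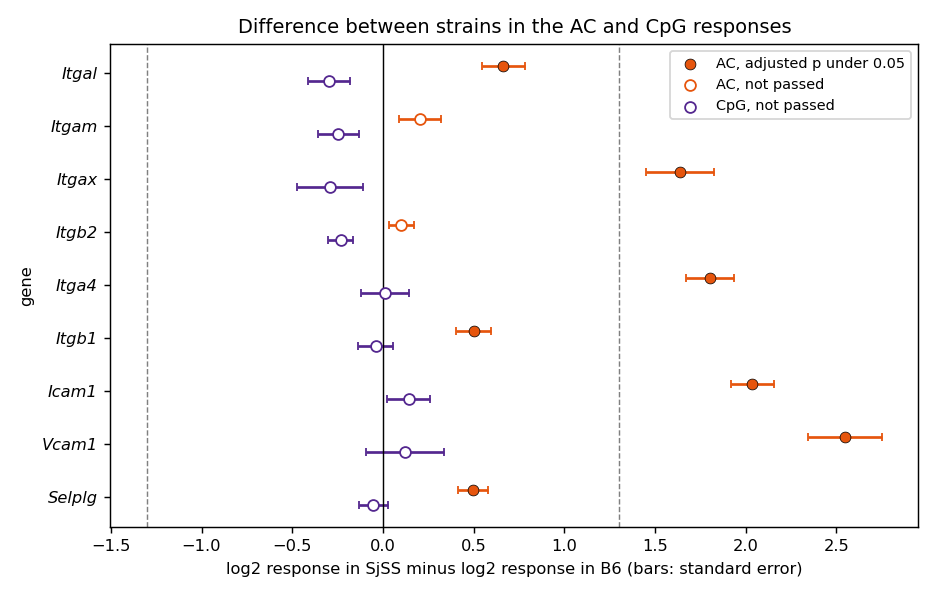
Log2 response in SjSS minus log2 response in B6 for ACs (orange) and CpG (purple), with standard errors. Filled points passed at an adjusted p under 0.05 and dashed lines mark 1.3 in either direction. For ACs 7 of 9 genes passed and 4 lie beyond 1.3, for CpG 0 of 9 passed.

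Since SjSS mice carry NOD intervals, genes near each member were counted for strain differences in control BMDMs, and the counts for 6 members are given. Within 5 Mb of Vcam1, 2 of 29 tested genes were called (Gm43587 and Plppr4), and on chromosome 3 as a whole 38 of 831 (4.57%). Within 5 Mb of Icam1 it was 0 of 82 and within 5 Mb of Itga4 0 of 34. Near Selplg 3 of 116 were called, near Itgb2 3 of 177 and near Itgb1 1 of 39. The bounds of the intervals were not used here.

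The genes most like each member over the 18 samples are given as a description, by Pearson's r of log2 CPM among 10025 genes at 5 CPM or more on average. These points share libraries, groups and scaling. Icam1 was matched by N4bp1 (r = 0.994), Nfkb1, which encodes an NF-kB subunit (0.992), and Tnfaip3, which encodes the NF-kB inhibitor A20 (0.991). Vcam1 was closest to Pi4k2a (0.984), Mpp1 (0.979) and Sgcb (0.969), and Itgax to Mmp12, the macrophage elastase (0.979), then St8sia4 (0.937) and Anxa3 (0.919). By Spearman's rho, Mmp12, St8sia4 and Anxa3 stood lower with Itgax, at 0.81, 0.67 and 0.48. Itga4 came nearest to Nampt (0.975), Ctsc (0.970) and Cers6 (0.963), and Itgal to 2310043P16Rik (0.992), Cp (0.991) and Tnfrsf14 (0.990). The closest gene of Itgb1 was Lsm14a (0.984), of Selplg Rpl17-ps5 (0.965), of Itgb2 Zfp710 (0.959) and of Itgam Cysltr1 (0.948).

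Among the members themselves, r over the 18 samples was 0.90 for Itgal with Itgb1, 0.89 for Itgal with Itgb2, 0.88 for Itga4 with its partner Itgb1 and 0.86 for Itga4 with Icam1. Vcam1 with Selplg gave 0.85, while Vcam1 with its receptor subunit Itga4 gave 0.36, in which the samples with CpG hold high Itga4 and low Vcam1. The adjacent genes Itgam and Itgax gave 0.57. Spearman's rho was 0.20 for this last pair, 0.0031 for Vcam1 with Itga4 and 0.63 for Vcam1 with Selplg. For the pairs named first it was 0.76 to 0.93.

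Around these 9 genes, 105 others of the adhesion machinery were listed in 7 groups: other integrin subunits, other ligands, selectins with the enzymes that build their ligands, activators and inhibitors of integrins, signalling from integrins, and proteases that shed adhesion proteins. Of these, 102 were in the table and 97 were tested. In B6, ACs raised 4 past both thresholds and lowered 3 (2.43% and 2.03% of all tested genes), and in SjSS the counts were 18 and 7 (7.09% and 5.83% of all). With CpG it was 17 and 6 in B6 (5.86% and 6.88% of all) and 10 and 7 in SjSS (4.81% and 4.45%). The interaction was called higher for 8 and lower for 0 with ACs (4.76% and 2.77% of all), and for 2 and 0 with CpG (0.285% and 0.329%). Between untreated strains 1 was higher and 1 lower (2.01% of all called in either direction), with ACs 11 and 2 (6.24% and 2.69% of all), and with CpG 2 and 2 (1.82% and 0.792%). Of the 97, at adjusted p alone 42 rose and 20 fell with ACs in SjSS (28.6% and 29.4% of all), and 28 rose and 24 fell in B6 (20.0% and 18.3%), and the median log2 fold changes were 0.17 and 0.07, beside -0.02 and 0.00150 over all tested genes.

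Genes for selectins and for the making of PSGL-1's sugar and sulphate groups bear on the same contact as Selplg. Of 13 tested in that group, 5 were called higher and 2 lower with ACs in SjSS, where 12.9% of all genes were called, and 0 in B6, where 4.46% were. Whether the strains differ in this count was not tested. Tpst1, whose enzyme adds the sulphate by which PSGL-1 binds P-selectin, went from 12.9 ± 1.74 to 102 ± 8.03 CPM in SjSS and from 10.96 ± 0.255 to 12.7 ± 0.986 in B6, an interaction of 2.78 (SE 0.21, adjusted p = 7.01e-09). Gcnt1, whose enzyme branches the glycans on PSGL-1, fell from 105 ± 21.7 to 24.1 ± 2.30 CPM in SjSS with ACs (log2 fold change -2.12, adjusted p = 5.52e-11) and to 20.3 ± 2.92 with CpG (-2.37, adjusted p = 2.24e-11). In B6 it fell with CpG from 81.4 ± 4.94 to 10.4 ± 1.06 CPM (-2.96, adjusted p = 1.29e-12), and it stood at 36.7 ± 3.26 CPM with ACs. Sele, encoding E-selectin, was at 0 counts in all control samples and at 0.367 ± 0.0272 CPM in AC treated SjSS BMDMs, so no fold is given.

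Of the 22 genes that signal from integrins, 16 rose and 3 fell at adjusted p alone with ACs in SjSS (28.6% and 29.4% of all), and 10 rose and 3 fell in B6 (20.0% and 18.3%). Src, a kinase at integrin contacts, went from 14.97 ± 0.544 to 98.3 ± 4.59 CPM in SjSS and from 14.5 ± 3.10 to 41.8 ± 7.73 in B6 (log2 fold change 1.52, adjusted p = 3.62e-08 in B6). Of 17 other integrin subunits, 3 were higher and 2 lower with ACs at adjusted p alone in SjSS, and 3 higher and 4 lower in B6, beside the same shares of all genes. Itgb5, the beta subunit of a receptor for vitronectin, was the most abundant of those named and fell from 785 ± 20.6 to 163 ± 10.95 CPM with CpG in SjSS (-2.27, adjusted p = 1.10e-15). With ACs in SjSS it stood at 314 ± 18.8 CPM. In B6 it stood at 568 ± 33.1 CPM in controls, 258 ± 2.13 with ACs and 130 ± 3.47 with CpG. Itgb8, whose receptor activates latent TGF-beta, went from 0.115 ± 0.0583 to 4.38 ± 0.501 CPM with ACs in SjSS (5.18, SE 0.36, adjusted p = 3.47e-10). With CpG in SjSS it stood at 1.05 ± 0.146 CPM (3.13, adjusted p = 1.44e-06). In B6 it held 0.0439 ± 0.0246 CPM in controls and 0.718 ± 0.17 with ACs, where it was called higher too (adjusted p = 1.64e-06). With CpG in B6 it reached 1.65 ± 0.643 CPM (5.21, adjusted p = 4.23e-09).

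Pram1, an adaptor for integrin responses of neutrophils, fell with ACs from 10.8 ± 1.16 to 3.46 ± 0.853 CPM in B6 (-1.64, adjusted p = 3.83e-07) and from 10.6 ± 0.249 to 2.05 ± 0.288 in SjSS (-2.37, adjusted p = 1.46e-09). Cytip, which restrains LFA-1 through cytohesin, fell with CpG from 34.5 ± 6.57 to 2.34 ± 0.829 CPM in B6, and in SjSS from 19.4 ± 5.24 to 6.09 ± 1.90, an interaction with CpG of 2.19 (SE 0.35, adjusted p = 0.00116). Adam19, a membrane protease, rose with CpG in B6 from 9.44 ± 3.20 to 88.7 ± 22.5 CPM (3.22, adjusted p = 2.33e-09) and was lower in CpG treated SjSS at 24.8 ± 7.72 (-1.84, adjusted p = 2.20e-05). Fn1, encoding fibronectin, a ligand of VLA-4, was higher in control SjSS at 211 ± 33.2 CPM than in control B6 at 78.9 ± 33.6 (1.42, SE 0.27, adjusted p = 0.00110). F11r, encoding the LFA-1 ligand JAM-A, was lower in SjSS with ACs (-2.32, adjusted p = 3.99e-06), at 2.06 ± 0.540 CPM against 10.3 ± 2.43, and with CpG (-2.59, adjusted p = 5.83e-06). In controls F11r stood at 5.15 ± 0.321 CPM in SjSS and 12.4 ± 5.15 in B6. Itga8, a subunit of a fibronectin receptor, and Itga2b, that of platelets, were named by the same rule and stood at or below 3.02 CPM on average in every group.

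**Figure D5:**
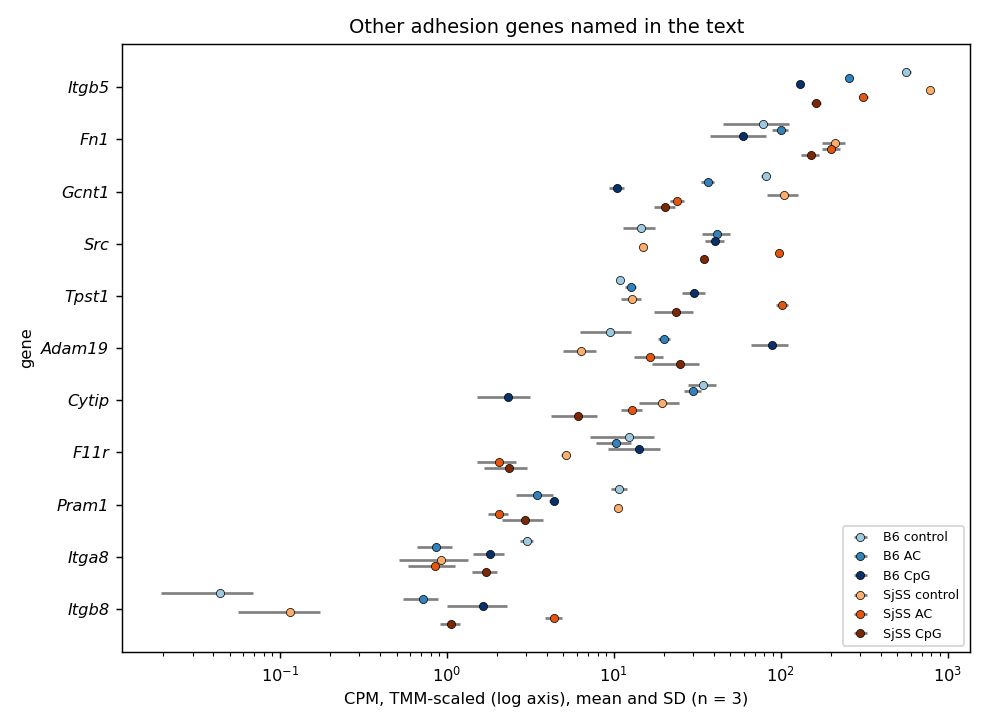
Mean level (CPM, TMM-scaled, log axis) and SD (n = 3) of the other adhesion genes named in the text that reached 1 CPM in at least 1 group, from the most to the least abundant. Tpst1, Src and Itgb8 are highest in AC treated SjSS BMDMs, and Gcnt1 and Itgb5 are lower in every treated group than in controls.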

How the data were processed

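RNA-seq of 18 BMDM samples in 6 groups of 3 was used. Per the methods, the authors aligned reads to mm10 with STAR in Partek Flow and assigned them to genes with its E/M tool. The deposited values are estimated counts per gene, not normalized, and 41.1% were not whole (tolerance 1e-06). The versions of STAR and of the annotation are not given in the sources used here. E/M assignment divides reads shared between similar or overlapping genes, so such genes can trade counts.

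Estimated counts were rounded to whole numbers. Genes kept by filterByExpr (15789 of 20615) were scaled by TMM and fitted in edgeR 4.0.16 (R 4.3.3) by glmQLFit with 1 mean per group over all 18 samples, so that groups share an estimate of the spread. Benjamini-Hochberg adjustment of the glmQLFTest p-values ran over all tested genes in each of 9 comparisons. Calls needed a log2 fold change beyond 1.3 either way at adjusted p below 0.05, as in the methods. The SE is the log2 fold change divided by the square root of F. Log2 CPM for correlations used a prior count of 2. Exon lengths came from GENCODE M21. Tables and figures were made with matplotlib 3.10.9, numpy 2.4.6 and pandas 2.3.3 in Python 3.11.15. The scripts were tested on simulated data.

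Named are the 9 members, the 3 genes most correlated with each at a mean of 5 CPM or more, and the 2 largest called changes in each direction among the other adhesion genes. Members, lists and tests were chosen with earlier results of these data known. Alternatives were DESeq2 1.42.0, its size factors in edgeR, no filter, a filter of 10 counts in 3 samples, fits of the compared groups only, other fold thresholds, the replicate number as a block and each sample left out. Scaling by library totals was added after seeing the data. Deviations of same-numbered B6 control and CpG samples correlated at 0.137 to 0.263, so these numbers pair by the rule of over 0.1 in every pair. In the other pairings of groups the lowest value was 0.0198 to 0.0594. The table pairs gene names with values and holds no columns of group comparisons. Protein sequences were not used here. Some genes that the rule names are not reported here.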

Additional observations from a re-analysis of the deposited data

Results flagged for a closer look

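The response to ACs differed between SjSS and B6 BMDMs for 7 of the 9 adhesion genes by edgeR's quasi-likelihood test of the interaction, with Benjamini-Hochberg adjustment over 15789 genes, and each SjSS minus B6 difference was positive. The log2 differences were 2.55 for Vcam1 (adjusted p = 1.09e-08), 2.04 for Icam1 (2.52e-10), 1.80 for Itga4 (4.71e-09), 1.64 for Itgax (1.34e-06), 0.66 for Itgal (2.09e-04), 0.50 for Itgb1 (4.95e-04) and 0.50 for Selplg (8.10e-05). Over all tested genes 37.9% passed this test. With TMM scaling Itgax fell in B6 and did not pass in SjSS, and the other 6 rose in SjSS. By library totals Itgax also fell in SjSS (-0.47, adjusted p = 0.00442), Selplg stood there at -0.03 (adjusted p = 0.640), and the differences of Itgb1 and Selplg did not pass. TMM factors were 0.833 to 0.838 in AC treated SjSS and 1.10 to 1.13 in control SjSS libraries, and the part of this difference in composition was not tested. Groups of 3 were not searched for outlying samples.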

How the results depend on the processing

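Over 1215 refits of the members' log2 fold changes, 1125 kept their direction and their side of adjusted p 0.05, 43 changed direction, 29 were no longer past it and 18 came past it. With no fold threshold the members counted were 3 lower with ACs in B6, 6 higher with ACs in SjSS, 6 higher and 2 lower with CpG in B6, 5 higher and 3 lower with CpG in SjSS, 1 higher and 2 lower between controls, 9 higher between strains with ACs, 1 higher and 4 lower with CpG, and 7 in the interaction with AC. With a log2 fold change over 2 they were 0 higher and 0 lower with ACs in B6, 1 higher with CpG in SjSS, 1 between strains with ACs and 2 in that interaction. By library totals, chosen after seeing the data, 2 members were called with ACs in SjSS, 2 between strains with ACs and 3 in that interaction.

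By library totals these values turned: with ACs, Itgb1 in B6 (-0.0019), Itgb2 (-0.34) and Selplg (-0.031) in SjSS; with CpG in SjSS, Itgam (-0.033); between controls, Itgam (0.039) and Itgb1 (0.0026); between strains with ACs, Itgam (-0.10) and Itgb2 (-0.083), and with CpG Itgb1 (0.015); in the interaction with AC, Itgam (-0.14) and Itgb2 (-0.24), and with CpG Itgb1 (0.013). Of these, Itgb2 passed with ACs in SjSS and in the interaction with AC (adjusted p = 2.17e-06 and 0.00467). Itgam (-0.54) and Itgax (-0.47) with ACs in SjSS, Selplg with ACs in B6 (-0.19) and Itgb2 between controls (0.16) came past the p threshold. By DESeq2 and by its size factors in edgeR, Itgax with CpG in B6 (0.0033 and 0.0036), Vcam1 between strains with CpG (-0.022 and -0.019) and Itga4 in the interaction with CpG (-0.016 and -0.016) turned, as did Itgam between controls (0.0066) in a fit of those groups alone. None of these last had passed. The mean CPM of Icam1 in control B6 was 141 by DESeq2's size factors.

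With each sample left out in turn, no direction of a passing value changed. Ranges that crossed 0 were -0.12 to 0.0057 for Itgax with ACs in SjSS, -0.16 to 0.17 for Itgax with CpG in B6, and between controls -0.028 to 0.046 for Itgam, -0.011 to 0.32 for Itgax, -0.10 to 0.030 for Itgb1 and -0.30 to 0.066 for Vcam1. Between strains with CpG it was -0.10 to 0.094 for Vcam1, and in the interaction with CpG -0.056 to 0.10 for Itga4, -0.11 to 0.019 for Itgb1, -0.062 to 0.30 for Vcam1 and -0.093 to 0.00071 for Selplg. The members called between strains with ACs numbered 3 to 4. With the replicate number as a replicate block the interaction of strain and AC was 2.54 for Vcam1 and 2.04 for Icam1, and no member's call changed. With the block within strain, adjusted p fell under 0.05 for Vcam1 with ACs in B6 (0.28, adjusted p = 0.0122), Itgam in the interaction with AC (0.20, adjusted p = 0.0403) and Itgb2 in that with CpG (-0.23, adjusted p = 0.0428). The cause was not tested. The thinnest value was 345 counts, of Itgax.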
